A study of Livoneca redmanii with 3 samples.

Results

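Hemocyanin and larval serum protein transcripts of the fish parasite Livoneca redmanii, an isopod crustacean of the family Cymothoidae, were described in every library of the study. The set holds each assembled transcript (contig) whose deposited description contains "larval serum protein" or "hemocyanin", together with all contigs of the assembled gene TRINITY_DN12_c0_g1. It came to 21 of the 31922 distinct contigs in the count table. They belong to 3 of the 26084 assembled genes, with 15 contigs in TRINITY_DN12_c0_g1, 4 in TRINITY_DN34_c0_g1 and 2 in TRINITY_DN113_c0_g1. Each of the 21 contigs carried one of these descriptions, so the text and the gene name chose the same contigs of TRINITY_DN12_c0_g1. In what follows the genes are called DN12, DN34 and DN113, and a contig is called by its gene and its number, as in DN12 i14.

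Hemocyanin is the copper protein that carries oxygen in the hemolymph, the blood fluid, of crustaceans and many other arthropods. In crustaceans it is made largely in the hepatopancreas, the digestive gland, and it is among the most abundant proteins of the hemolymph. Larval serum proteins of insects are relatives of hemocyanin within the same superfamily that have lost the copper-binding residues and serve as stores of amino acids. Phenoloxidases, which darken and harden cuticle and act in immunity, belong to that superfamily too.

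RNA was taken from whole animals, collected from Tilapia zilli hosts, under 3 conditions with 1 library each. Low-temperature animals were cooled to 10 °C, low-salinity animals were brought gradually to 8 PSU, and controls stayed at 35 PSU and 26 °C. The salinity of the low-temperature group and the temperature of the low-salinity group are not stated in the labels, nor are sex, age or the number of animals behind a library. With 1 library per condition, no difference below has a replicate check, no test was run, and every interval is an exact 95% interval for counting error only.

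The libraries stood apart in what they held. They summed to 2782324 counts in low temperature, 1434390 in low salinity and 2142836 in control. Contigs whose annotation holds a term from a word list for mobile genetic elements took 4.64% of the low-temperature library, 55.0% of low salinity and 48.4% of control. The list includes reverse transcriptase, integrase and transposon words, and also ribonuclease H and zinc knuckle, so it can take in other genes. Transcripts of actin and of muscle myosin were nearly absent from low salinity and control. The muscle myosin gene unc-54 (TRINITY_DN17_c0_g1) had 10745 counts in low temperature, 2 in low salinity and 2 in control, and the actin gene TRINITY_DN31_c0_g1 had 12689, 4 and 4. Against their label of whole animal, the low-salinity and control libraries thus held these transcripts only as traces. These differences in library content move with every difference below, and their part in it was not tested.

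DN12 was abundant in low temperature and close to the limit of detection in the other libraries. Over its 15 contigs it had 42385 counts in low temperature (41982 to 42791), 10 in low salinity (4.80 to 18.4) and 13 in control (6.92 to 22.2). This was 1.52% of all low-temperature counts (1.51% to 1.54%), 0.000697% of low-salinity counts (0.000334% to 0.00128%) and 0.000607% of control counts (0.000323% to 0.00104%). The low-temperature library stood far above the others, while the intervals of low salinity and control overlapped. In a whole-animal library, fewer cells that express a gene and less RNA per cell cannot be told apart.

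The other genes of the set had the same pattern at lower counts. DN34, described only as larval serum protein, had 7720 counts in low temperature (7549 to 7894) and 0 in both low salinity and control. A count of 0, read as at most 3 counts, allows a share of up to 0.000209% in low salinity and 0.00014% in control. DN113, which holds the contig described only by the copper-containing domain of hemocyanin, had 1294 counts in low temperature (1224 to 1366), 0 in low salinity and 1 in control. The set as a whole came to 51399 counts in low temperature, 10 in low salinity and 14 in control, with 82.5% of the low-temperature counts in DN12, 15.0% in DN34 and 2.52% in DN113. The tables give no contig lengths, so these are shares of reads and do not rank the genes by number of molecules.

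**Figure D1:**
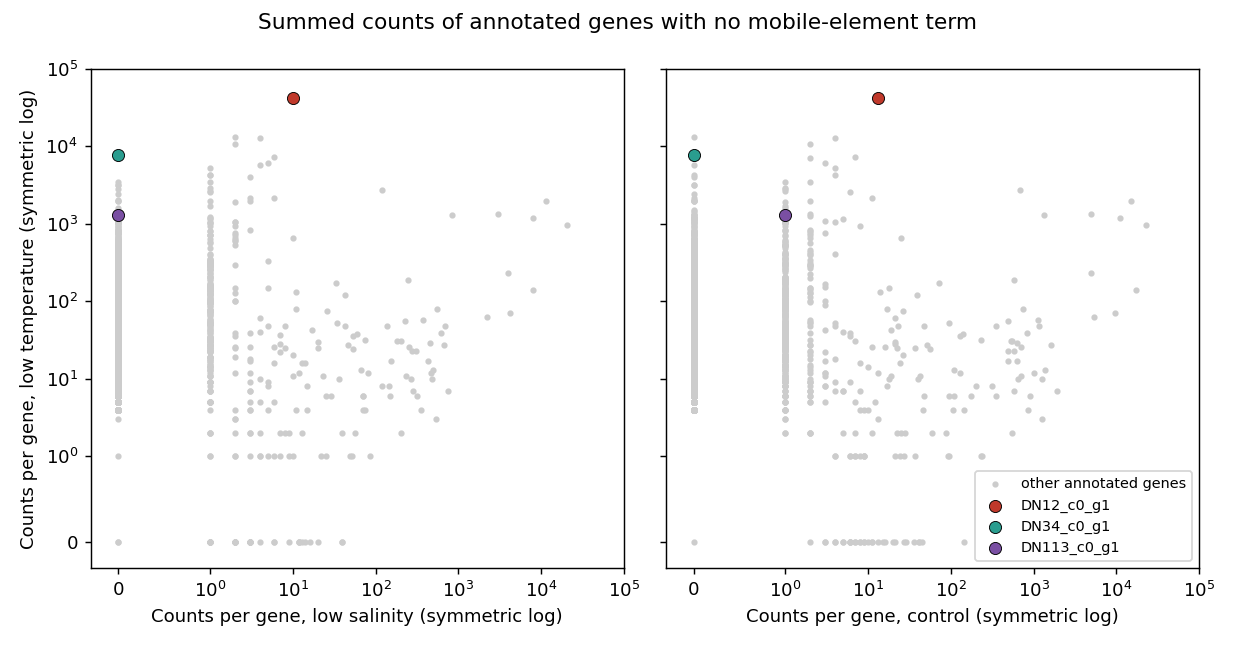
Each point is an annotated gene with no mobile-element term, with its contig counts summed, in low temperature (vertical axis) against low salinity (left) or control (right), all on symmetric log axes that are linear between 0 and 1. DN12 lies at the top of both panels with 42385 counts in low temperature against 10 in low salinity and 13 in control, and DN34 lies at 0 in both of the other libraries.

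After scaling of the libraries by the trimmed mean of M values (TMM), the level of DN12 in counts per unit of scaled depth (CPM) was 33939 in low temperature, 5.42 in low salinity and 3.50 in control. The ratio of low temperature to control was 9694 (5668 to 18208), a log2 ratio of 13.24. The ratio of low temperature to low salinity was 6259 (3403 to 13053), a log2 ratio of 12.61. For DN34, set against a floor of 3 counts per library, low temperature was at least 7651-fold higher than control and at least 3800.1-fold higher than low salinity. For DN113 the ratio to control was 3847 (689.3 to 152083), resting on 1 control count, and low temperature was at least 637-fold higher than low salinity.

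The size of these ratios depended on how the libraries were scaled. Under the 5 other scalings the log2 ratio of DN12 between low temperature and control lay between 10.41, with totals that leave out mobile-element contigs, and 14.83, with TMM over the tested contigs. Between low temperature and low salinity it lay between 10.01 and 14.35 under the same scalings. No scaling brought it near 0.

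**Figure D2:**
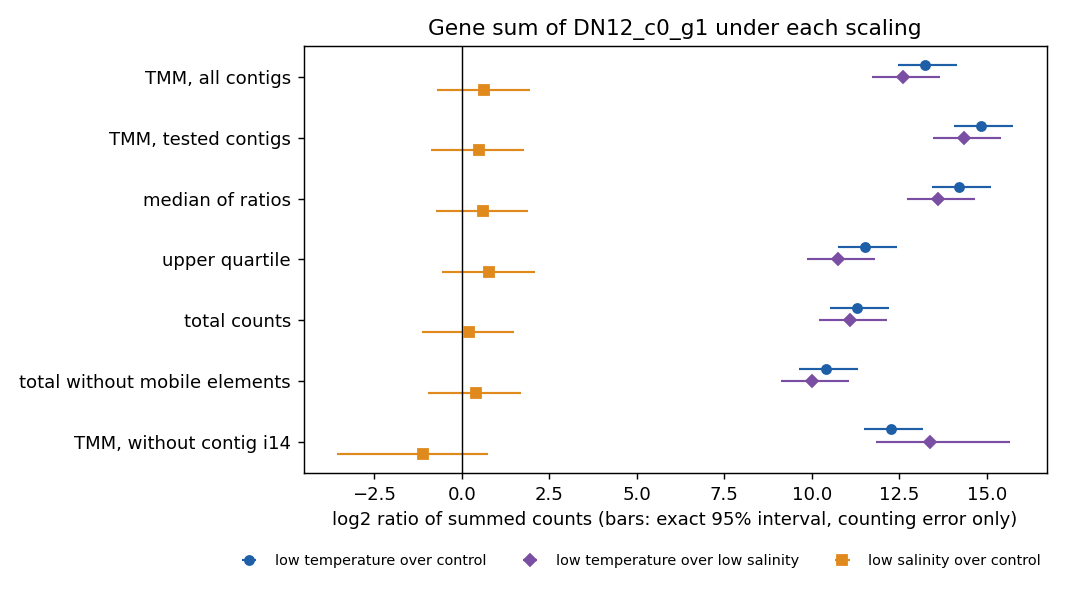
The log2 ratio of the summed counts of DN12 under each scaling, and without contig i14 under TMM, for low temperature over control (circles), low temperature over low salinity (diamonds) and low salinity over control (squares); bars are exact 95% intervals for counting error. Both low-temperature ratios lie at 10.01 or above in every row, whereas the ratio of low salinity to control has an interval that spans 0 in every row.

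The 15 contigs of DN12 differed widely in counts within low temperature. The lowest, i26, had 37 counts, the median was 914 and the highest, i14, had 20734. Contig i14, described only as larval serum protein, had 7 low-salinity counts and none in control. It held 48.9% of the gene's low-temperature counts (48.4% to 49.4%). It was the annotated contig with the most low-temperature counts among the 5295 with no mobile-element term, and stood at rank 26 among all contigs. Low temperature was at least 20549.5-fold higher than control for this contig, and 4374-fold higher than low salinity (2123 to 10881). Contig i15, also described only as larval serum protein, had 7039 counts in low temperature and 0 in both low salinity and control. It held 16.6% of the gene's counts, and i5, which carries both descriptions, held 10.7% with 4529 counts against 0 and 0. These 3 contigs together took 76.2% of the low-temperature counts of DN12.

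The remaining contigs of DN12 were minor. Contig i11, with both descriptions, had 2187 counts in low temperature and 0 in both low salinity and control. Contig i18, with both descriptions, had 1698 counts in low temperature, 3 in low salinity and 6 in control. Contig i9, described as larval serum protein, had 1578 in low temperature, 0 in low salinity and 7 in control. Contigs i14, i18 and i9 were the only contigs of DN12 with a count outside low temperature. Contig i4 had 1117 counts in low temperature, and the other 8 had between 37 and 914. All 9 of these were at 0 in both other libraries.

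DN34 and DN113 were also each carried mainly by one or a pair of contigs. In DN34, i4 had 4565 low-temperature counts, 59.1% of the gene, and i3 had 2781, 36.0%, while i2 and i1 had 305 and 69. All of them were at 0 in low salinity and control. In DN113, i1 had 1221 counts in low temperature and no other count, and i2 had 73 in low temperature, 0 in low salinity and 1 in control. Contigs of one assembled gene can share sequence, and estimated counts then divide shared reads among them, so the split between contigs is less certain than the gene sums.

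**Figure D3:**
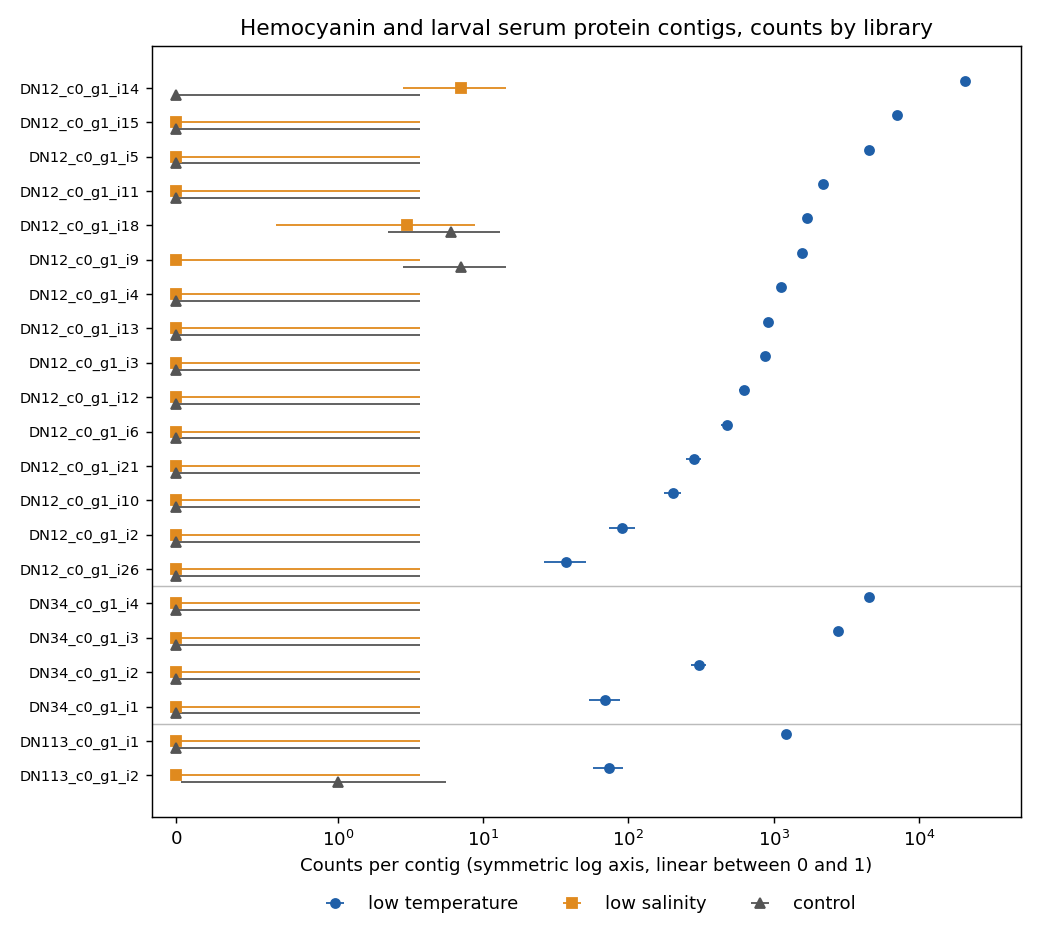
Counts of each of the 21 contigs in low temperature (circles), low salinity (squares) and control (triangles) on a symmetric log axis that is linear between 0 and 1, with exact Poisson 95% intervals; grey lines separate DN12, DN34 and DN113. Every contig lies at 37 counts or more in low temperature and at 7 or fewer in the other libraries.

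All 21 contigs passed the filter, which asks for 10 or more counts on average per library, and they passed it through low temperature, where alone they were high, so their direction was fixed by the filter. In low temperature all 21 exceeded control at least 2-fold, where 49.6% of the 8563 tested contigs were at least 2-fold higher and 43.0% at least 2-fold lower. Against low salinity all 21 were again at least 2-fold higher, beside 49.9% higher and 41.8% lower of the tested contigs. Among the 2797 tested contigs that were annotated with no mobile-element term, 93.4% were at least 2-fold higher and 5.93% lower in low temperature than in control, and 93.4% were higher and 5.58% lower than in low salinity. A higher value in low temperature was thus usual among annotated contigs, and the count of 21 says nothing particular to hemocyanin. For low temperature over low salinity, 4273 tested contigs were higher and 3577 lower, and with TMM over the tested contigs these were 4798 and 2600.

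The comparison of low salinity (8 PSU) with control rested on very few reads of these genes. The ratio of the 10 low-salinity counts of DN12 to its 13 control counts was 1.55 (0.608 to 3.82), or 0.63 on the log2 scale. A difference was not detectable at these counts. The sign depended on 1 contig, since without i14 the sums were 3 in low salinity and 13 in control, and the log2 ratio was -1.11 with a ratio of 0.465 (0.0849 to 1.69). Contig i14, with 7 counts against 0, was at least 4.70-fold higher in low salinity when control is set to the floor, a log2 ratio of at least 2.23, and at least 1.495 with a floor of 5 counts. Contig i18 had 3 and 6, a ratio of 1.01 (0.163 to 4.71), and i9 had 0 and 7. DN34 was at 0 in both libraries, and DN113 had 0 and 1, so no ratio can be given.

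By the size rule, 1 of the 21 contigs was at least 2-fold higher in low salinity, beside 5.62% of the tested contigs, and 2 were at least 2-fold lower, beside 13.3%. Among annotated contigs with no mobile-element term these shares were 4.93% and 7.65%. The higher one was DN12 i14 with its 7 counts, and the lower ones were DN12 i9 with 7 control counts and DN113 i2 with 1. Both lower calls come from the prior count of 0.5 in the fitted ratio. Against the floor of 3 counts i9 was at most 0.863 times control, which does not reach 2-fold, and DN113 i2 gives no ratio. Over all tested contigs 481 were higher and 1139 lower, and with total counts as the scale these were 335 and 1742.

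The 13 control counts of DN12 lay on contigs that held few of its low-temperature counts, while for the 10 low-salinity counts the intervals of i14 and i9 hold the low-temperature shares and that of i18 lies above its share. Contig i14 held 48.9% of the gene's counts in low temperature (48.4% to 49.4%), 70.0% in low salinity (7 of 10, 34.8% to 93.3%) and none in control (0 of 13, exact upper limit 24.7%). Contig i9 held 3.72% in low temperature (3.54% to 3.91%), none in low salinity (0 of 10, exact upper limit 30.8%) and 53.8% in control (7 of 13, 25.1% to 80.8%). Contig i18 held 4.01% in low temperature (3.82% to 4.20%), 30.0% in low salinity (6.67% to 65.2%) and 46.2% in control (19.2% to 74.9%). For i14 the control limit lies under the low-temperature share, and for i9 and i18 the control intervals lie above it. These contigs were singled out after their values were seen, because they alone had counts in those libraries, so part of the contrast was built into the choice. The division of shared reads is itself an estimate, whose error these intervals do not hold.

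**Figure D4:**
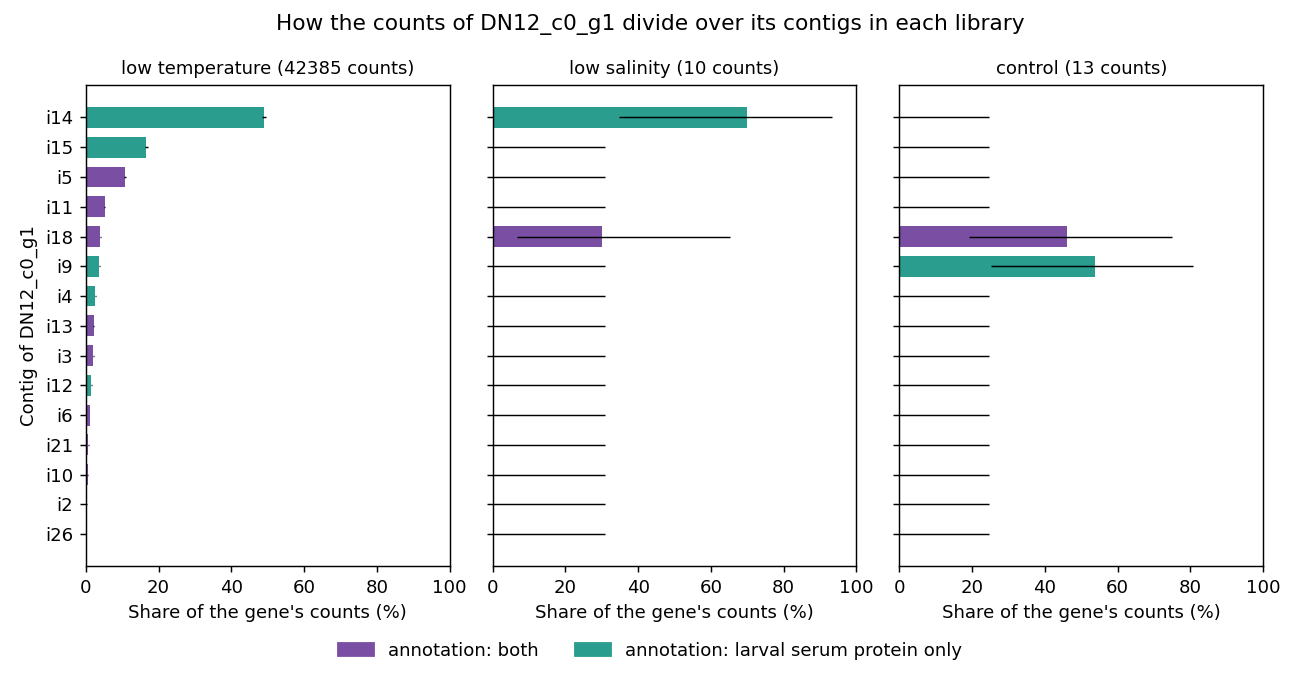
Share of the summed counts of DN12 (horizontal axis, percent) that each of its 15 contigs held in low temperature, low salinity and control, with exact binomial 95% intervals and colours for the annotation text. Contig i14 leads in low temperature and low salinity, whereas the 13 control counts lie on i18 and i9 only.

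The annotation divided the set by domain text. Of the 21 contigs, 10 were described only as larval serum protein, 10 carried both descriptions on the same contig, and 1, DN113 i1, was described only by the copper-containing domain of hemocyanin. Contigs described only as larval serum protein totalled 38853 counts in low temperature, 7 in low salinity and 7 in control, and held 75.6% of the set's low-temperature counts. Contigs with both descriptions summed to 11325, 3 and 7, or 22.0%. Within DN12 the contigs with larval serum protein alone held 73.5% of the low-temperature counts (73.0% to 73.9%), 70.0% of those in low salinity (34.8% to 93.3%) and 53.8% of those in control (25.1% to 80.8%), and these intervals overlapped. The presence of both descriptions on 9 of 15 contigs of DN12 means that the text does not separate an oxygen carrier from a storage protein here.

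The descriptions rest on few reference proteins. The contigs were listed up to 3 times in the count table, with 1 listing per annotation entry, so that 11 were listed once, 6 were listed 2 times and 4 were listed 3 times. One reference protein, KDR21642, was the match behind the larval serum protein text of 19 contigs, all of DN12 and DN34. A different one, KDR21641, was the match of DN113 i2, and XP_010383018 was the match behind the hemocyanin text of 11 contigs in DN12 and DN113. The taxon numbers given with these matches are 136037 for the KDR proteins, a termite, and 61622 for the other, a monkey. Vertebrates carry oxygen on hemoglobin and are not known to have hemocyanin. No contig outside the set was matched to any of these. The 20 contigs with larval serum protein text all carried the same 52 Gene Ontology terms. These terms include the larval serum protein complex, the extracellular space and axon guidance, but neither oxygen carrier activity nor nutrient reservoir activity.

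DN12 led the annotated genes of the low-temperature library. Summed over contigs, it had the most counts of the 3999 annotated genes with no mobile-element term, DN34 stood at rank 5 and DN113 at rank 41. Over all 26084 genes DN12 stood at rank 7, DN34 at rank 38 and DN113 at rank 136, with 79.1% of that library on unannotated contigs. DN12 alone held 9.39% of the low-temperature counts of annotated contigs with no mobile-element term, against 0.00854% in low salinity and 0.00726% in control. That share, whose denominator leaves out mobile elements and unannotated contigs in each library, also set low temperature far above the others. The denominator did not level the libraries, because other cellular transcripts differed in the same way. The 150 contigs of cytosolic ribosomal proteins had 18765 counts in low temperature, 18 in low salinity and 14 in control. The contrast in share is thus not particular to DN12.

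The genes most like DN12 by Euclidean distance over the 3 values of log2(CPM + 0.5) were those of actin, a C-type lectin domain protein, myosin, a fatty acid-binding protein and vitellogenin. With only 3 libraries this likeness is a description of level in low temperature and near absence elsewhere. Closest was the actin gene TRINITY_DN31_c0_g1 at a distance of 2.48, with the counts given above. Its annotation is mixed, since it also includes the name NUP133, Nucleoporin 133. The C-type lectin domain gene TRINITY_DN43_c0_g1, of a family of sugar-binding proteins, was at 2.73, with 7253 counts in low temperature, 6 in low salinity and 7 in control. The myosin gene unc-54 was at 3.37. FABP6 (TRINITY_DN30239_c0_g1), a fatty acid-binding protein, was also at 3.37, with 5998, 5 and 3 counts. Vitellogenin, Vg (TRINITY_DN9_c0_g1), the yolk precursor that also travels in hemolymph, was at 3.94, with 13103, 2 and 0. DN34 stood at place 16 in this order and DN113 at place 49.

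Genes that work with hemocyanin were sought by text. No contig was described as a hexamerin, arylphorin, cryptocyanin, hemerythrin or globin, so no other oxygen carrier or storage hexamer was named. The list of the phenoloxidase cascade matched 3 contigs, none of them described as a phenoloxidase or tyrosinase. These were 2 serpins, inhibitors of serine proteases, and a multicopper oxidase (TRINITY_DN30789_c0_g1_i1). Together they had 177 low-temperature counts and none in low salinity or control, led by SERPINB11 (TRINITY_DN30577_c0_g1_i1) with 91, 0 and 0. Both tested contigs, the serpins, were higher in low temperature than in control, beside 93.4% of the annotated contigs with no mobile-element term.

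The copper list held 8 contigs with 275 counts in low temperature, 9 in low salinity and 14 in control, and all 4 tested contigs were higher in low temperature than in control. Its copper importer SLC31A1 had contigs with 87, 0 and 0 counts (TRINITY_DN64913_c0_g1_i2) and 30, 0 and 0 (TRINITY_DN64913_c0_g1_i1). Its most abundant match, cox3 (TRINITY_DN1_c1_g1_i4), with 88, 3 and 6 counts, is a subunit of the respiratory cytochrome oxidase and entered only through the word copper. The list of other hemolymph proteins held 28 contigs with 15216, 3 and 4 counts, most of them vitellogenin, and all 23 tested were higher. None of the tested contigs on these lists was lower. All met the count filter through low temperature alone, which fixed their direction, and 93.4% of the annotated contigs with no mobile-element term were higher too. Their median fitted log2 ratios of low temperature to control were 8.22 for the phenoloxidase list, 6.02 for copper and 9.18 for hemolymph, or 6.35, 5.17 and 7.30 with contigs at 0 set to the floor. The same median was 7.77 over the tested annotated contigs with no mobile-element term, or 6.12 with those at 0 set to the floor, and 0.83 over all tested contigs. Under other scalings the median over all tested contigs moved to between -1.90 and 2.40, and the ratios of every contig moved with the scale.

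Contigs matched by words chosen as markers of organs or of the fish host moved the same way. All of their tested contigs met the count filter through low temperature alone, which fixed their direction. Zeros were common elsewhere too: of all 31922 contigs, 14173 had a count in low salinity and 17444 in control. Hepatopancreas and gut markers (22 contigs, mostly trypsin-like proteases) had 2775 counts in total in low temperature, 1 in low salinity and 3 in control, and 21 and 20 of them were at 0 in low salinity and control. Hemocyte markers (21 contigs) summed to 4968, 4 and 9, with 19 and 18 at 0. Most of these counts lay on a C-type lectin contig (TRINITY_DN43_c0_g1_i7) with 3390, 3 and 7, which entered through the word lectin. Yolk markers (7 contigs) summed to 13103, 2 and 0, with 5 and 7 at 0. Fish host text matched 7 contigs with 336, 0 and 3 counts, led by IFI30 (TRINITY_DN255_c0_g1_i1) with 142, 0 and 0. IFI30 entered through the words MHC class in its description, and TRINITY_DN7700_c0_g1_i1, with 55, 0 and 0, through fibrinogen-related domains. Such word matches do not show that the reads came from fish. No contig was described as hemoglobin, the defining protein of fish blood. The part of organ makeup in the counts of hemocyanin was not tested.

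The authors' gene-level values represented these genes by single contigs. In the authors' deposited table of normalized values, DN12 had 1508 in low temperature and 0 in low salinity and control. That value is contig i10, whose 202 counts were entered 3 times, once per listing, and multiplied by the low-temperature factor of 2.49. Contig i10 holds 0.477% of the gene's low-temperature counts. DN34 had 172 in the authors' deposited table, from i1 with 0.894% of the gene's counts, and DN113 had 3039, from i1 with 94.4%. All contigs summed and multiplied by the same factor give 105484 for DN12, 19213 for DN34 and 3220.4 for DN113. The order of the genes thus differed, with DN113 highest in the authors' deposited table and lowest of the sums. By either value low temperature was the only library far from 0.

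**Figure D5:**
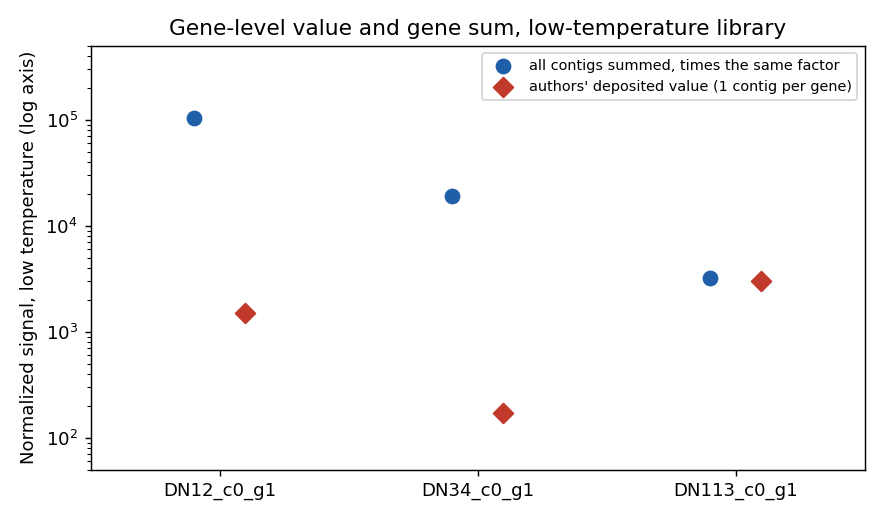
Normalized signal of DN12, DN34 and DN113 in low temperature on a log axis, as the sum of all contigs times the authors' factor (circles) and as the authors' deposited value for 1 contig per gene (diamonds). The sum lies at 105484 and the deposited value at 1508 for DN12, whereas for DN113 the sum lies at 3220.4 and the deposited value at 3039.

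The fold changes follow from those single contigs. The authors' deposited table of low temperature against control gave log2 fold changes of 13.03 for DN12 (standard error 1.44), 9.90 for DN34 (1.44) and 14.04 for DN113 (1.44). The adjusted p-values in the authors' deposited table were 1.07e-17 for DN12, 1.18e-10 for DN34 and 1.67e-20 for DN113, and 79.3% of its 26067 adjusted p-values were under 0.05. With 1 library per condition these p-values have no replicates behind them. The authors' deposited table of low salinity against low temperature, whose direction puts low salinity on top, gave -13.04, -9.91 and -14.05 for DN12, DN34 and DN113. In the authors' deposited table of low salinity against control all 3 genes had a log2 fold change of 0 and an adjusted p of 1, since each representative contig was at 0 in both libraries. The 10 low-salinity and 13 control counts of DN12 lie on contigs that this table leaves out.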

How the data were processed

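Estimated counts per contig, whole numbers in the file, were deposited by the authors. The submitters' processing notes name FastQC 0.11.9, fastp 0.23.2 and Salmon 1.10.2. No assembler, annotation tool or build is given in the sources used here, and contig sequences and lengths were not used here. The deposited normalized signal holds 1 contig per gene times 1 factor per library (2.49 for low temperature, 0.850 for low salinity, 0.431 for control). The authors' 3 deposited comparison tables give, per the file headers, log2 fold changes and their errors, mean and test scores, and p-values.

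The count table had 33093 rows for 31922 contigs, and each contig was used once. Per the labels' protocols, whole animals were extracted with TRIzol and sequenced on Ion Torrent. Libraries were scaled with TMM over all contigs (edgeR 4.0.16, R 4.3.3; factors 0.449 for low temperature, 1.29 for low salinity and 1.73 for control). Size calls used an absolute log2 CPM ratio of at least 1 with a prior count of 0.5, among contigs with a mean count of at least 10. Ratios of counts carry exact conditional binomial intervals, counts exact Poisson intervals and shares exact binomial (Clopper-Pearson) intervals, computed with scipy 1.17.1. Reads amplified without molecular identifiers are not independent molecules, so intervals and floors cover counting error only. A library at 0 was set to a floor of 3 counts (2.40 CPM in low temperature, 1.63 in low salinity and 0.808 in control), and no ratio was formed where both were at or under it. DESeq2 1.42.0 gave the median-of-ratios alternative. The contigs were named by the description rule, each list by its 3 members with the most counts, and likeness by the 5 nearest annotated genes. The contigs and lists were chosen with earlier results of these data known.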

Additional observations from a re-analysis of the deposited data

How the results depend on the processing

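Under the alternatives run here the direction of DN12, DN34, DN113 and their contigs between low temperature and either other library did not turn. All 21 contigs kept an excess of 2-fold or more under each of the 5 other scalings. The count filter had already fixed their direction, so this count says nothing particular to hemocyanin. Against control, 3980 to 4694 of the 8563 tested contigs met the same rule upward under those scalings, and 2743 to 4436 downward. Against low salinity the ranges were 4014 to 4798 upward and 2600 to 4319 downward. TMM over tested contigs, and leaving out i14, were chosen after seeing the data. Without i14 the log2 ratio of DN12 between low salinity and control turned to -1.11. Limiting DN12 to i10, the authors' contig, gave bounds of 7.65 for low temperature over control and 6.64 over low salinity, and no value for low salinity over control, where i10 was at 0 in both. A floor of 5 counts in place of 3 lowered every bound, to log2 ratios of at least 12.16 for DN34 and 13.59 for DN12 i14 in low temperature over control, and left i9 with no bound under 0 in low salinity over control. As a share of counts without mobile-element contigs, DN12 took 1.60% in low temperature, 0.00155% in low salinity and 0.00118% in control. The number of contigs past the size rule followed the filter. With no filter, 16628 were higher and 12501 lower in low temperature than control, 16887 and 10372 than low salinity, and 3073 and 6743 in low salinity than control. With a mean count of at least 50 these were 913 and 1279, 922 and 1279, and 132 and 329. Total counts gave 1742 lower in low salinity than control. No paired analysis was possible because each condition has 1 library. With 10 and 13 counts of DN12, the few reads of the gene limit the comparison of low salinity with control.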

Other observations

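Set against cytosolic ribosomal proteins inside each library, which needs no scaling between libraries, the counts of DN12 were 2.26 times those of 150 ribosomal protein contigs in low temperature (42385 and 18765 counts, 2.22 to 2.30), 0.556 times in low salinity (10 and 18, 0.229 to 1.27) and 0.929 times in control (13 and 14, 0.402 to 2.13). Both upper limits lie under the low-temperature value, although this measure was chosen after the data were seen and rests on few reads outside low temperature. In point values the contrast depended on the reference. The actin gene TRINITY_DN31_c0_g1 had 12689 counts in low temperature, 4 in low salinity and 4 in control, and the myosin gene unc-54 had 10745, 2 and 2. As point ratios, DN12 was lowest relative to myosin in low temperature, and relative to actin close to equal in low temperature and control. These ratios rest on 2 myosin and 4 actin counts in each of low salinity and control. No interval was computed for them, so their order is not resolved.

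The trace of DN12 outside low temperature was of an ordinary size for an abundant gene. Per 1000 counts in low temperature, DN12 had 0.236 in low salinity and 0.307 in control. Among the 64 other annotated genes with no mobile-element term and at least 1000 low-temperature counts, the median was 0.169 in low salinity and 0.303 in control. In low salinity 35 of them lay below DN12 and 29 above it, and in control 32 lay below and 32 above. Of the 64 genes, 31 had no low-salinity count and 29 no control count, so these medians rest on very few reads.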
